A study of Mus musculus with 12 samples.

Results

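The stepwise falling genes are 136 of 18194 genes (0.747%) measured in mouse embryonic stem cells (ES cells), chosen because their RNA was progressively lower in cells that lost Ronin than in control cells. They were selected on the measured values themselves. For each gene the difference was the mean log2 intensity in knockout cells minus that in control cells. A gene was taken when this difference lay within 0.6 of 0 on day 1.5, was at most -0.5 on day 3, was at most -0.8 and lower still on day 6, and when the mean log2 intensity in control cells of day 6 was at least 6 (an intensity of 64). Genes with symbols starting Thap, Mmachc, Mrp, Nduf, Uqc, Cox, Slc25, Ube2, Gtf, Zc4h2 or Nudt12 were left out, which removed 7 genes that met the same thresholds. Because the differences chose the genes, their size and direction are a description and carry no support of their own.

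Ronin, encoded by Thap11, is a zinc finger protein of the THAP family that binds promoters together with the cofactor HCF-1. In ES cells it is known for occupying promoters of genes for metabolism, mitochondria and protein synthesis and is needed for the cells to keep growing.

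All cells carried Thap11 alleles flanked by loxP sites (Roninflox/flox). CreERT2, the recombinase that cuts out the flanked part once tamoxifen has sent it to the nucleus, was present in knockout cells and absent from control cells. Both received tamoxifen at 0.25 µM, 100000 cells having been plated on 10 cm2, and were split on day 4. RNA was taken on days 1.5, 3 and 6, with 2 Affymetrix arrays in each of 6 groups, 12 in all. CreERT2 was in every knockout group and in no control group, so effects of the recombinase or of the line cannot be told apart from loss of Thap11, and whether both arrays of a group are from different cultures is not stated. The Thap11 probe set read 1262 and 1181 in controls of day 1.5, 1279 and 1290 on day 3 and 1305 and 1382 on day 6. In knockout cells it read 327.4 and 354.2, then 110.2 and 92.72, then 50.64 and 51.5, which is 27.9%, 7.87% and 3.8% of control, so the targeted RNA was already low on day 1.5. The lowest correlation of 2 arrays of a group was 0.9982. Array medians were 44.36 to 44.72 on day 3 and 42.37 to 43.04 on the other days. All 8 listed ES cell markers were measured, and their summed intensity was 69840 and 70030 in controls and 72050 and 72290 in knockout cells of day 6. On that day Utf1 was lower by the limma test (log2 difference -0.29, adjusted p = 0.011), and Pou5f1 and Nanog were at 11440 and 5566 in controls. In bulk RNA, fewer cells of a type and less RNA per cell cannot be told apart.

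Many of the stepwise falling genes shared a short promoter sequence, which the rule did not use. The motif searched was the one known for Ronin-bound promoters, written here as ACTACA, any 2 bases, then TCCC, on both strands. RefSeq promoter windows (GRCm38.p6) of 300 bases, from 250 before to 50 after a start site, were matched to 107 of the 136 genes, and 59 of these (55.1%) held the motif. Of all 14369 measured genes with a window, 493 (3.43%) held it. That set includes dim genes, which the rule excluded from the members. A control intensity of at least 64 on day 6 was reached by 439 of the 493 genes with the motif and by 8233 of the 13876 without it. The share over all genes is therefore not matched to the members for intensity. The shorter form ACTACAATT, which overlaps the longer motif when its free bases are AT and so is no separate evidence, was in 13 of the 107 (12.1%) and in 92 of all genes (0.64%). All 13 also held the longer motif. In the order of their day 6 differences, from -3.63 to -0.81, the 59 are Iftap, 1110004F10Rik, Acad8, Cbr4, Clpb, Rbbp9, Bckdk, Enox2, Poglut2, Zfp111, Zfp317, Thyn1, Bivm, Marchf5, Zfp661, 4933404O12Rik, Rad18, Cep128, Map3k10, Trub1, Setmar, Thtpa, Erp44, Bola1, Fam185a, Bub1b, Capn15, Snapc3, Mpi, Rabac1, Tbc1d2b, Fsd1, Rab29, Shmt2, Dstyk, Gmppa, Zscan22, Arv1, Bod1, Zfp606, Rsl1, Letm1, Fto, Kif5c, Fam234b, Dpf1, Wrnip1, Slc38a7, Rad51b, Bet1, Pprc1, Vps41, Mdh1, Kbtbd8, Rdh11, Ipo7, Ttll4, Snhg12 and Adck1. A match is a description of letters, not a shown binding site.

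The 250 bases before the start are printed for Iftap, which had the lowest day 6 difference, and for Thyn1, whose upstream stretch is shared with Acad8 on the other strand. Letters run 5′ to 3′ along the gene, and capitals mark the motif, which reads as its reverse complement where it lies on the opposite strand.
Iftap (chr2:101629032-101629281, minus strand): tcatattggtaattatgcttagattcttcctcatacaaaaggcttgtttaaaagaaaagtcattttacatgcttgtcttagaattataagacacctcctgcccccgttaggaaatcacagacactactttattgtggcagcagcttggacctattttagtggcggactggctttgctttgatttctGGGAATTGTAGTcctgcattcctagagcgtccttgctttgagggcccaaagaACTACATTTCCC
Thyn1 (chr9:26999427-26999676, plus strand): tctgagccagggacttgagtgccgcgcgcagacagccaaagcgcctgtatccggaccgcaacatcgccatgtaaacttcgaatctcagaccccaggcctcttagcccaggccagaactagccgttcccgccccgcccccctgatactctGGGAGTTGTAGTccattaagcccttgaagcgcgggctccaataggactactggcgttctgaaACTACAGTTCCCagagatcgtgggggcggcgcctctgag
In Iftap the 2 matches point away from each other, and the nearer one ends at the base before the start site. In the Acad8 and Thyn1 stretch the 2 matches also point away from each other, so that each gene has 1 match in its own direction.

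Sites of 30 bases are printed for members of different roles, to show which letters vary around the motif. Each is read in the direction of the motif, with 4 bases before it and 14 after it, and capitals mark the motif.
Bckdk (chr7:127904025-127904054, plus strand): tcaaACTACAACTCCCaggaggcactgggc
Clpb (chr7:101663620-101663649, minus strand): acaaACTACATTTCCCcgagggctgtggaa
Cbr4 (chr8:61487660-61487689, plus strand): aaggACTACAAGTCCCagaatgcaatgcaa
Shmt2 (chr10:127522481-127522510, minus strand): aaaaACTACAATTCCCagaaggcaattttt
Mdh1 (chr11:21571929-21571958, plus strand): ctaaACTACAATTCCCccaaaccccttctt
Bola1 (chr3:96197686-96197715, minus strand): agggACTACAATTCCCataaaacctctggg
Rbbp9 (chr2:144550856-144550885, minus strand): aagaACTACAATTCCCagaagtccgcagtg
Enox2 (chrX:49288346-49288375, minus strand): tcaaACTACATTTCCCatgaagacacatgc
Poglut2 (chr1:44118926-44118955, minus strand): gcggACTACATATCCCaggaagctaagggg
Gmppa (chr1:75435896-75435925, plus strand): caaaACTACAATTCCCagcagcccccgcga
Rad18 (chr6:112696702-112696731, minus strand): aagaACTACAGCTCCCagcatgccgtgcgc
Bub1b (chr2:118598120-118598149, plus strand): tgaaACTACAACTCCCattgtgcattgcgc
Trub1 (chr19:57452870-57452899, plus strand): atggACTACAATTCCCagaaggccttgcaa
Fto (chr8:91313293-91313322, minus strand): gagaACTACATTTCCCagtgggtaacggga
Zfp111 (chr7:24208198-24208227, plus strand): tgggACTACATTTCCCagaatgctaaagtt
Zfp317 (chr9:19621863-19621892, plus strand): agaaACTACATTTCCCataaacccttgtca
Zfp317 (chr9:19621907-19621936, plus strand): agaaACTACATTTCCCataaaccatttcaa
Directly after the motif, most of the printed sites continue with ag, as did 43 of the 71 member sites with a full 30 bases (60.6%). Among other genes 260 of 491 sites did so (53%), and the difference was not tested. The free pair was TT at 21 of 72 member sites, AC at 13 and AT at 12. In these counts a site shared by 2 members was counted for each. The 2 sites of Zfp317 lie close together and differ only in their flanks.

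The motif lay close to the start of transcription. Over the 59 members there were 72 matches, with 2 each in 13 genes, and 50 ran in the direction of the gene. Matches were counted per gene, so those shared by Acad8 and Thyn1, and by Bivm and Poglut2, were counted for both genes. All but 2 matches began before the start, 46 (63.9%) within 100 bases, and the median position of the first base was -74. A match in several windows of a gene was placed from 1 of its starts only, and 22 members had more than 1 window. The Fam234b match, counted after the start, lies before another start of that gene. Other measured genes with the motif had 498 matches, of which 59.8% began within 100 bases before the start and whose median was -79. Both sets thus had most of their matches in the same stretch.

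**Figure D1:**
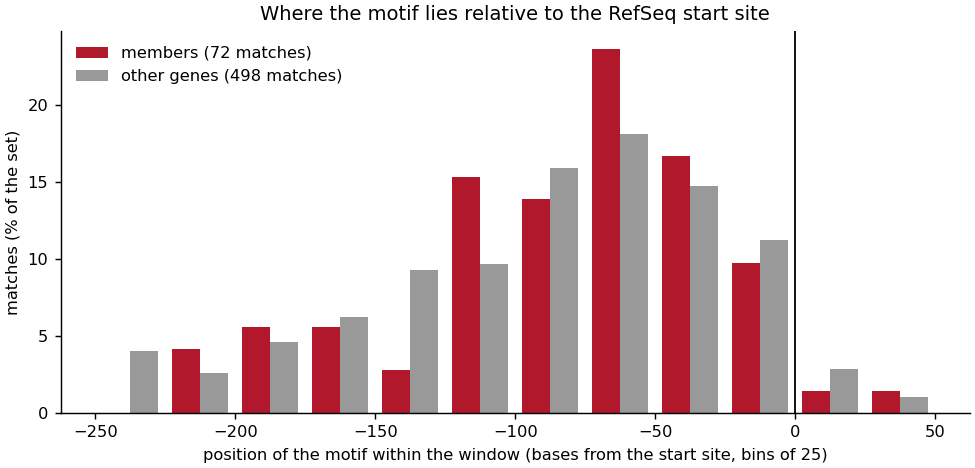
Position of the Ronin motif in promoter windows, in bins of 25 bases from the RefSeq start site, as a percentage of 72 matches in stepwise falling genes (red) and 498 matches in other measured genes (grey). Both sets are most frequent from -75 to -51, with 23.6% and 18.1% of matches.

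The share of genes with the motif followed the depth of the day 6 difference over the whole array, as shown by the bars of motif share. Among genes with a control intensity of at least 64 on day 6 and a window, 23 of 33 (69.7%) held the motif where the difference was at or below -2, 47 of 112 (42.0%) from -2 to -1, and 68 of 459 (14.8%) from -1 to -0.5. Between -0.5 and 0 the share was 3.39%. It was higher again among genes with higher RNA in knockout cells, at 7.14% from 0.5 to 1 and 12.5% above 1. The first bins contain the stepwise falling genes, so they are not a separate observation.

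The motif was also counted in other sets cut from the same arrays, with no test between them. Genes that met the rule only by day 6, with the day 3 limit missed, had it in 13 of 59 windows (22%), and genes rising stepwise by mirrored limits in 20 of 114 (17.5%). Of the 7 genes of left-out families that met the thresholds (Gtf2h4, Mmachc, Mrpl24, Mrpl34, Mrpl54, Slc25a23 and Uqcr10), 5 of the 6 with a window had it (83.3%), a higher share than among the members. Restricting the search to genes with a single window gave 46 of 85 members (54.1%) and 392 of 11721 genes (3.34%).

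**Figure D2:**
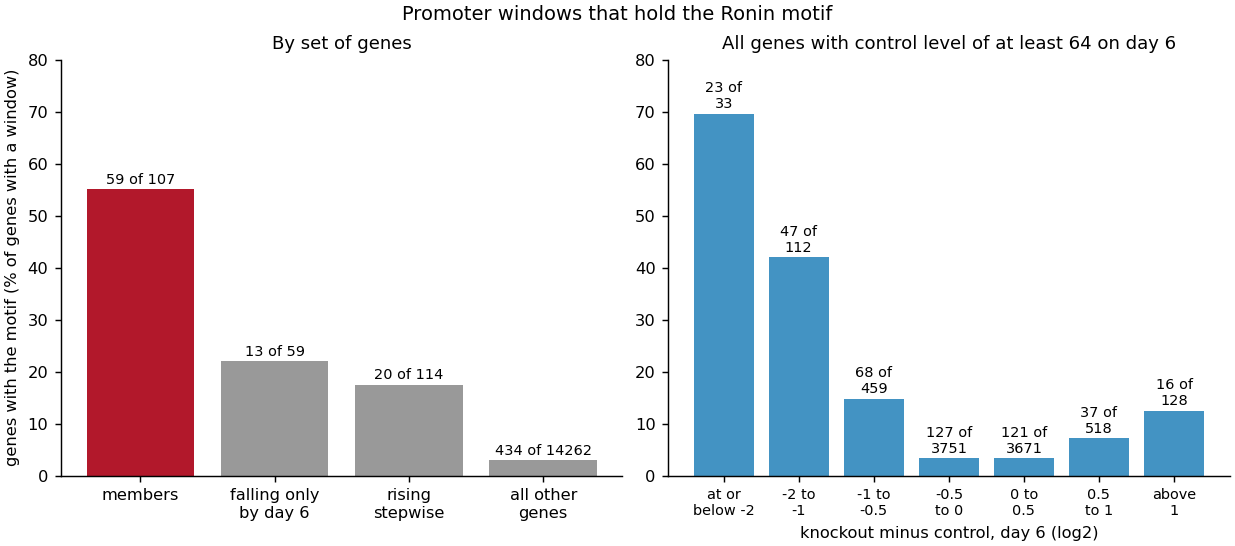
Left, percentage of genes with a promoter window that held the Ronin motif, for the stepwise falling genes (59 of 107), genes falling only by day 6 (13 of 59), genes rising stepwise (20 of 114) and all measured genes other than the stepwise falling ones (434 of 14262). Right, the same percentage over all genes with a control intensity of at least 64, in bins of the log2 knockout-minus-control difference of day 6, highest (69.7%) at or below -2.

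Motifs of other promoter factors differed less between the 107 members and all genes than the Ronin motif did. All genes here again include dim ones, so the shares are not matched for intensity. CCGGAAG (ETS factors) was in 13.1% of members and 15% of all genes, GCATGCGC (NRF1) in 4.67% and 4.7%, and AAGATGGC (YY1) in 2.8% and 4.09%. TTCCCGC (E2F) was in 9.35% and 7.97%, CCAAT (NF-Y) in 41.1% and 42.0%, CACGTG (E-box) in 8.41% and 10.3%, GGGCGG (Sp and KLF factors) in 48.6% and 57.5%, and TATAAA (the TATA box) in 9.35% and 11.5%. TTCCCGC can overlap the Ronin motif in its first 5 letters. No test was made on any of the shares.

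Genes with the motif moved in both directions outside the group. Outside the stepwise falling genes 434 genes held it. On day 6 limma at an adjusted p of 0.05 called 154 of them (35.5%) lower in knockout cells and 112 (25.8%) higher (all genes, 15.3% and 17.2%), with a median log2 difference of -0.07. Of the 13876 genes with a window and no motif, 14.6% were lower and 17.4% higher on day 6. A control intensity of at least 64 on day 6 was reached by 380 of the 434 and by 8233 of the 13876. The shares called are therefore not matched for intensity. Within the stepwise falling genes, the 59 with the motif had a median day 6 difference of -1.29, the 48 with a window and no motif -1.24, and the 29 with no window -1.22. The medians of the 3 sets were thus close together, and 12 of the 20 genes at least 4-fold lower were in the first set. The members with no window are Cdk5, Clint1, Ctif, Dnajc12, Dnajc18, Galm, H2-Bl, Kctd17, Lratd2, Msi1, Nkx6-3, Ppargc1b, Prelid2, Ramp2, Rttn, Sec11c, Septin6, Slc1a5, Slc23a1, Snapin, Srl, St3gal2, Syt7, Tst, Vamp7, Zfp369, Zfp449, Zfp862-ps and Zfp90.

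Some members have a neighbour that starts nearby and is transcribed the other way. A pair was counted when the starts lay within 1000 bases on opposite strands and pointed apart, with at most 100 bases of overlap. There were 13 such pairs of measured genes. In 2 pairs both genes are members: Acad8 and Thyn1, whose starts are 128 bases apart, and Bivm and Poglut2, 184 bases apart around 1 shared motif. The differences of Acad8 on days 1.5, 3 and 6 were -0.22, -1.22 and -2.74, and those of Thyn1 were -0.20, -0.67 and -2.01. Bivm had -0.56, -1.26 and -1.96, and Poglut2 -0.50, -1.46 and -2.26. In the other 11 pairs the neighbour was called lower on day 6 in 5, higher in 1 and neither in 5 (all genes, 15.3% lower and 17.2% higher). Zfp607b, across from the kinase gene Map3k10, was at -1.44, -1.03 and -1.35 on the 3 days (limma, adjusted p = 0.0019, 0.0033 and 0.00046), so it was as low on day 1.5 as on day 6, whereas Map3k10 was at -0.24, -0.91 and -1.51. Ttc13, across from Arv1, was at 0.02, -0.31 and -0.48 (limma, adjusted p = 0.90, 0.0049 and 0.00025). Cpeb3, whose start is 69 bases from that of Marchf5, was at 0.24, -0.53 and -0.13 (limma, adjusted p = 0.23, 0.0072 and 0.44), while Marchf5 was at -0.48, -1.24 and -1.70. Neighbours with nearby starts were thus called lower on day 6 in some pairs and not in others, and a call on that day does not show a decline over the days.

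As a group, the stepwise falling genes stood at a median of 85.5% of control on day 1.5, 58.0% on day 3 and 41.8% on day 6. The median log2 differences were -0.23 (from -0.59 to 0.56), -0.78 (from -1.88 to -0.51) and -1.26 (from -3.63 to -0.81). Lower values were not confined to days 3 and 6. On day 1.5, 115 of the 136 differences were below 0 and 21 above. No array was taken before day 1.5, so an early decline cannot be told apart from a standing difference between the lines. Knockout and control arrays did not overlap, with both knockout arrays lower, for 102 members on day 1.5 and for all 136 on days 3 and 6, against 25%, 24.2% and 32.4% of all genes. Of all 187 genes at least 2-fold lower on day 6, 104 were members, and of all 37 at least 4-fold lower, 20 were. The standard error of a day 6 difference was 0.046 to 0.24, with a median of 0.076.

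**Figure D3:**
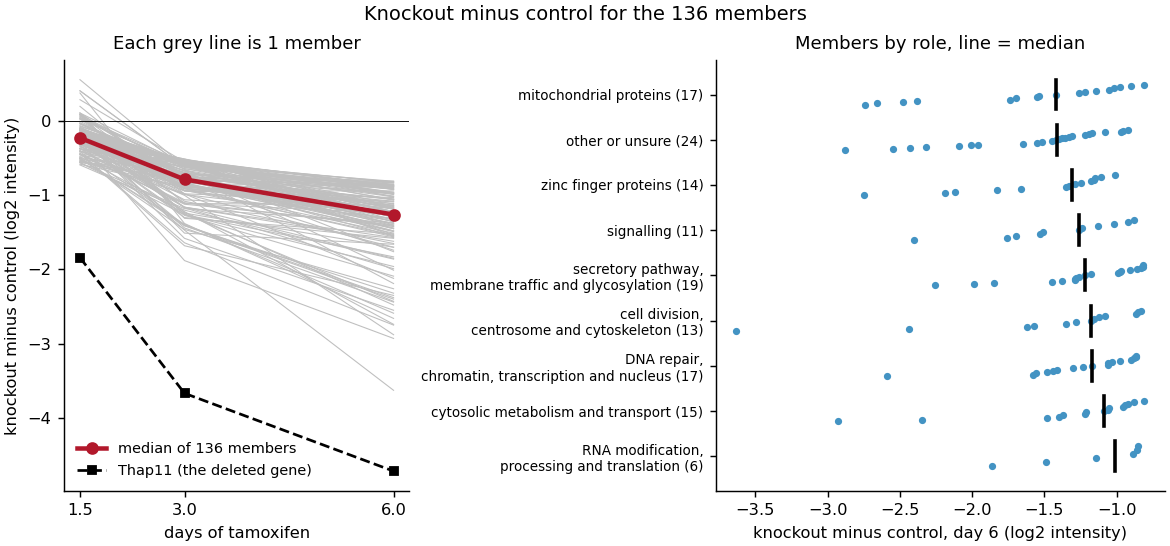
Left, log2 knockout-minus-control difference by day of tamoxifen for each of the 136 stepwise falling genes (grey), their median (red; -0.23, -0.78 and -1.26) and Thap11 (dashed; -1.84, -3.67 and -4.72). Right, day 6 differences of the same genes by role, each point a gene and each black line the median of the role, from -1.42 for mitochondrial proteins to -1.02 for RNA modification, processing and translation.

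Calls by limma with Benjamini-Hochberg adjustment over all genes at 0.05 are given beside the share of all genes called, and nothing is read from those the rule used. On day 1.5, 45 members were called lower (all genes, 3.98%) and 3 higher (all genes, 5.93%), the latter being Cbr4, Gnmt and Hspb11. On day 3, 135 were called lower (all genes, 10.0%) and 0 higher (all genes, 13.3%), the exception being Car11 with an adjusted p of 0.073. On day 6 all 136 were called lower (all genes, 15.3%). The change of the difference from day 3 to day 6 was called downward in 84 (all genes, 8.75%) and upward in 0 (all genes, 7.69%), a direction that the rule had fixed. The motif was in 17 of the 33 members with a window that were called lower on day 1.5 and in 42 of the other 74, and the difference was not tested.

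The tempo differed among members. The day 6 difference was a median of 1.65 times that of day 3, with a range of 1.005 to 3.18 times. For 25 members it was at least 2 times as large, and for 15 under 1.2 times. The difference moved further between days 1.5 and 3 than between days 3 and 6 in 85 members and less far in 51. Its median movement was -0.60 in the first interval and -0.50 in the second, which is longer.

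To describe the spread between arrays, the rule was also applied to the replicate 1 arrays alone and read in the replicate 2 arrays, and the other way round. Replicate 1 chose 131 genes. In replicate 2 all 131 were below 0 on days 3 and 6, with medians of -0.70 and -1.25, and 91 (69.5%) met the whole rule. Replicate 2 chose 129 genes, all of them below 0 on days 3 and 6 in replicate 1, with medians of -0.89 and -1.26, and 91 (70.5%) met the whole rule. The arrays of a group were nearly alike (lowest correlation 0.9982) and may be technical replicates. These counts therefore speak only for the spread between arrays and give the members no separate support.

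The genes near the limits show how arbitrary the borders are. On day 1.5 Pus3 (-0.586), Mid1ip1 (-0.577) and Slc1a5 (-0.561) lay just inside, and Tbc1d8b (-0.614), Ctu1 (-0.616) and Timm21 (-0.620) just outside. On day 3 Ak4 (-0.506), Zfp369 (-0.514) and Klk8 (-0.519) were inside and Hapln4 (-0.499), Arrb1 (-0.487) and Arhgap30 (-0.483) outside. On day 6 G0s2 (-0.812), Adck1 (-0.814) and Syt7 (-0.821) were inside and Septin8 (-0.793), Stk26 (-0.785) and Exoc6b (-0.784) outside. For the control intensity of day 6, Rsl1 (79.38), St3gal2 (80.84) and Stxbp5 (81.43) were inside and Aoc3 (55.44), Nat2 (49.83) and Zfp354a (48.21) outside.

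Mitochondrial proteins formed 17 of the members, with median differences of -0.18, -0.81 and -1.42 on the 3 days, and 14 of them were at least 2-fold lower on day 6. The roles were assigned after the members were known. Acad8, the dehydrogenase of valine breakdown, read 315.0 and 319.6 in controls of day 1.5, 252.7 and 261.7 on day 3 and 308.6 and 298.1 on day 6. In knockout cells it read 277.4 and 267.2, then 105.5 and 115.6, then 40.58 and 51.15. The knockout arrays were below the controls on each day and reached 15% of control on day 6, a log2 difference of -2.74 ± 0.097 (SE, here and below from the limma fit with n = 2 arrays per group). Bckdk, the kinase that restrains the breakdown of branched-chain keto acids, read 778.0 and 828.9 in controls and 156.9 and 150.9 in knockout cells of day 6. It was at 75.4%, 37.9% and 19.2% of control over the 3 days. Cbr4, a reductase of mitochondrial fatty acid synthesis, began in the other direction. It read 447.1 and 438.8 in controls against 570.6 and 586.1 in knockout cells on day 1.5, then 486.4 and 459.1 against 189.6 and 174.2 on day 3, and 533.2 and 554.4 against 81.05 and 90.84 on day 6. Its knockout arrays thus passed from 131% to 38.4% and then 15.8% of control. Clpb, a mitochondrial protein disaggregase, read 727.0 and 730.5 in controls and 123.3 and 137.6 in knockout cells of day 6, with a difference of -2.48 ± 0.079.

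Enzymes of serine, folate and intermediary metabolism in mitochondria were lower to a smaller degree. Shmt2, which takes a carbon unit from serine into the folate cycle, read 2851 and 2694 in controls and 1770 and 1706 in knockout cells of day 3, and 3401 and 3469 against 1433 and 1441 on day 6. It stood at 41.8% of control on day 6. Its 3 other probe sets gave -1.24, -1.20 and -0.78 on that day. Mthfd2l, a mitochondrial folate enzyme, had a day 6 difference of -0.98, and Pck2, which makes phosphoenolpyruvate from oxaloacetate, one of -1.54. Bola1, an iron-sulfur cluster factor, was at -1.42 and Cpox, an enzyme of haem synthesis, at -0.90. Marchf5, a ubiquitin ligase of the outer mitochondrial membrane, read 4344 and 4282 in controls and 1319 and 1334 in knockout cells of day 6. It was at 71.8%, 42.3% and 30.8% of control on the 3 days. The remaining mitochondrial members were Smim26, Acp6, Tst, Letm1, Prelid2, Ak4 and Adck1, with day 6 differences from -1.74 to -0.81. Of the 15 mitochondrial members with a promoter window, 9 held the Ronin motif.

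Zinc finger proteins, most of them sequence-specific DNA-binding proteins, gave 14 members, all at least 2-fold lower on day 6, with medians of -0.23, -0.86 and -1.31. They were Zfp418, Zfp111, Zfp317, Zfp90, Zfp661, Zfp862-ps, Zfp110, Zfp369, Zfp954, Zscan22, Zfp606, Rsl1, Zfp449 and Zik1. Zfp418 read 166.5 and 148.1 in controls and 20.01 and 27.23 in knockout cells of day 6, a difference of -2.75 ± 0.14. Zfp111 read 150.8 and 159.2 against 92.75 and 99.51 on day 3, and 196.0 and 187.5 against 45.22 and 38.92 on day 6. Its day 6 difference was 3.18 times that of day 3, the highest such ratio among members. Symbols starting Zfp made up 11 of the 136 members (8.09%) and 339 of all genes (1.86%). Over all 339 such genes, 77 were called lower and 76 higher on day 6 (all genes, 15.3% and 17.2%), with a median of -0.004. Lower and higher calls were thus about equal in number over the family. Of the 10 zinc finger members with a window, 6 held the motif. Chromosome 7 held 21 members (15.4%) and 7.84% of all placed genes, and 10 of the 20 members there with a window held the motif. Related zinc finger genes share sequence, and probe sets of Zfp110 and Rsl1 carry a suffix that marks probes shared with other transcripts.

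Proteins of the secretory pathway, membrane traffic and glycosylation formed the largest named role, with 19 members, medians of -0.19, -0.75 and -1.22, and 11 at least 2-fold lower on day 6. Poglut2, a glucosyltransferase of the endoplasmic reticulum, read 1064 and 1084 in controls and 759.6 and 762.9 in knockout cells of day 1.5. It then read 990.0 and 974.1 against 357.6 and 355.2 on day 3, and 1104 and 1107 against 234.3 and 227.8 on day 6. The groups were apart on each day, and its second probe set gave -2.31 on day 6 beside -2.26 ± 0.046. Gmppa, which regulates the making of GDP-mannose, was at -1.22, and Mpi, which makes mannose 6-phosphate, at -1.29, so 2 genes of mannose activation were on the list. Vps41, a tethering subunit for fusion with lysosomes, was at -0.97, Bet1, a SNARE between endoplasmic reticulum and Golgi, at -0.98, and Erp44, which retains proteins in the early secretory pathway, at -1.45. The others were Vamp7, Clint1, St3gal2, Rabac1, Tbc1d2b, Rab29, Arv1, Sec11c, Snapin, Dnajc6, Rab11fip5, Stxbp5 and Syt7. Of the 13 with a window, 10 held the motif (76.9%), the highest share of any role.

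Nuclear proteins, DNA repair, chromatin and transcription gave 17 members, with medians of -0.12, -0.69 and -1.17. Lmnb2, the nuclear lamin B2, read 513.6 and 512.3 in controls and 186.5 and 204.9 in knockout cells of day 3, and 623.3 and 630.3 against 107.5 and 100.9 on day 6. Its difference of -2.59 ± 0.066 was the lowest of this role, the next being that of Rad18. Rad18, the ubiquitin ligase that acts on stalled replication forks, read 420.2 and 391.2 against 162.9 and 113.0 on day 6. Most of its difference was present on day 3 (-1.30) and little was added by day 6 (-1.58). Rad51b, a recombination factor, was at 0.20, -0.94 and -1.03. Snapc3, a subunit of the complex that starts small nuclear RNA genes, was at -1.30 on day 6, and 2 of its other probe sets with control intensities over 64 gave -1.55 and 0.42, so its probe sets disagree. Ipo7, a nuclear import receptor, read 5623 and 5484 in controls and 3040 and 3032 in knockout cells of day 6, 54.7% of control. The others were Neil1, Setmar, Hdac8, Brd3, Sfmbt2, Ndc1, Dpf1, Wrnip1, Pprc1, Ppargc1b, Nkx6-3 and Zbed6, with day 6 differences from -1.56 to -0.87.

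Cell division, centrosome and cytoskeleton gave 13 members, with medians of -0.24, -0.75 and -1.18. Iftap, a protein associated with intraflagellar transport, had the lowest difference of all members. It read 555.4 and 557.4 in controls and 471.6 and 467.9 in knockout cells of day 1.5, 523.9 and 459.6 against 172.9 and 181.0 on day 3, and 527.2 and 562.4 against 46.38 and 41.98 on day 6. The control arrays stayed near one level while the knockout arrays went to 84.4%, 36.1% and 8.1% of control, a day 6 difference of -3.63 ± 0.076. Its 3 other probe sets were dim in controls, at 15.53 to 24.81, and gave -0.29 to 0.17. Iqgap3, an actin scaffold, read 417.7 and 415.6 against 77.16 and 76.92 on day 6, or 18.5% of control. Bub1b, a kinase of the mitotic checkpoint, read 2156 and 2078 against 2081 and 2053 on day 1.5, with overlapping arrays, and 2099 and 2193 against 857.3 and 822.6 on day 6. Hspb11, an intraflagellar transport subunit, was at 147% of control on day 1.5 and at 65.6% and 55.6% on days 3 and 6. The others were Daam1, Cep128, Fsd1, Bod1, Jtb, Septin6, Kif5c, Ttll4 and Rttn.

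**Figure D4:**
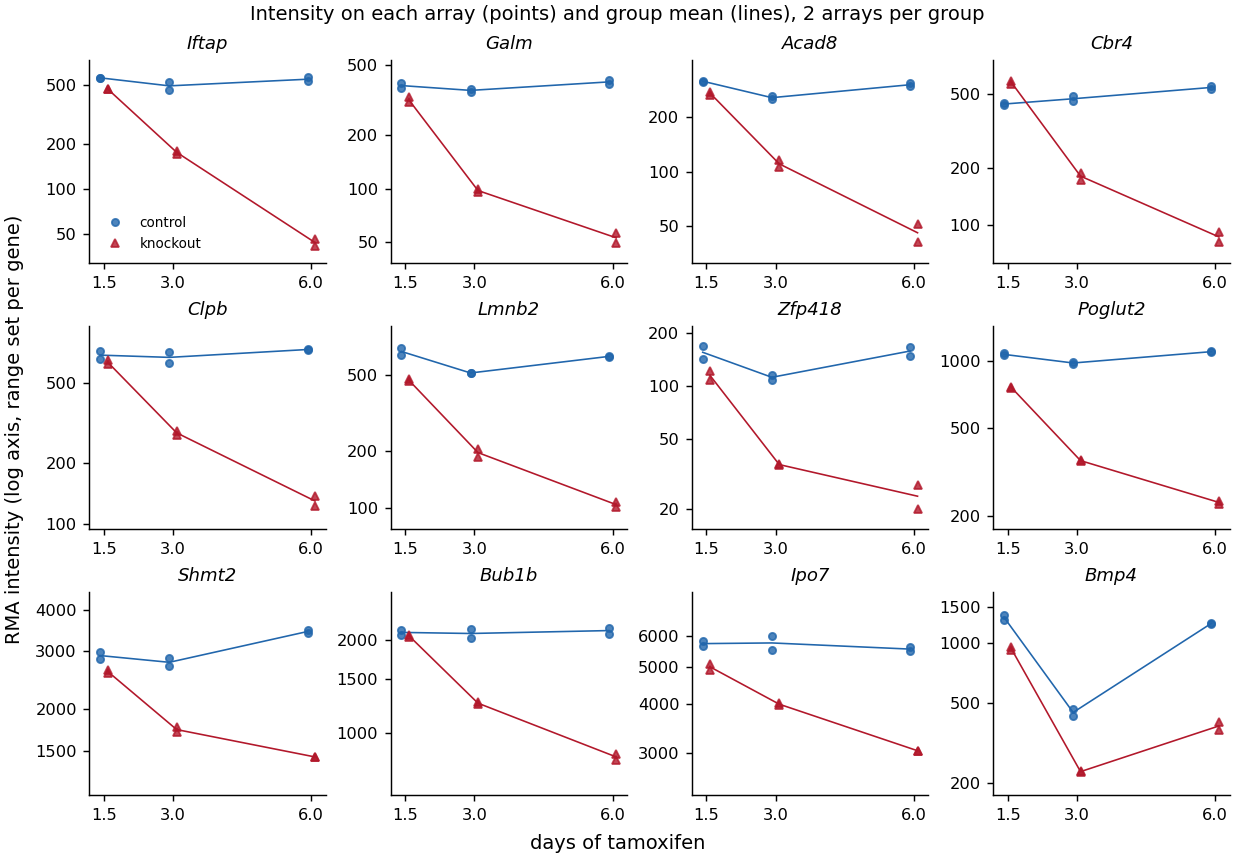
Intensity on every array for 12 stepwise falling genes, controls as blue circles and knockout cells as red triangles, with lines through the group means, against days of tamoxifen. The intensity axis is logarithmic and set per gene. Knockout arrays lie below control arrays on days 3 and 6 in all 12 genes, Cbr4 starts higher on day 1.5, and Bmp4 dips in both kinds of cells on day 3.

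Cytosolic metabolism and transport gave 15 members, with medians of -0.27, -0.76 and -1.09. Galm, which interconverts the forms of galactose, read 352.3 and 366.1 in controls and 95.72 and 99.21 in knockout cells of day 3, and 392.4 and 410.0 against 49.37 and 55.9 on day 6. Its day 3 difference of -1.88 was the lowest of all members on that day, and on day 6 it was -2.93 ± 0.072. Npl, which splits sialic acid, read 726.5 and 757.0 against 143.3 and 148.5 on day 6, or 19.7% of control. Mdh1, the cytosolic malate dehydrogenase, read 5266 and 5324 against 2668 and 2760 on day 6, and 2 of its other probe sets, at 2992 and 3260 in controls, gave -1.50 and -0.98. Slc1a5, a glutamine and neutral amino acid carrier, was at -0.56, -1.18 and -1.37. Mid1ip1, which promotes fatty acid synthesis, was at -0.58, -0.90 and -1.22. The others were Thtpa, Chac2, Acot1, Slc23a1, Fah, Slc38a7, Pgm2l1, Gnmt, Rdh11 and G0s2. Of the 12 in this role with a window, 4 held the motif.

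Signalling proteins gave 11 members, with medians of -0.24, -0.86 and -1.26. Map2k6, the kinase that activates p38, read 174.6 and 178.2 in controls and 66.56 and 65.76 in knockout cells of day 3, and 151.4 and 166.5 against 26.66 and 33.73 on day 6. It was at 18.9% of control on day 6. Bmp4, a growth factor that acts on ES cells and early lineages, changed with time in controls too and is described with the time courses. The others were Cdk5, Rasip1, Map3k10, Nfkbid, Dstyk, Rgcc, Tob2, Ramp2 and Stc2. Of 9 with a window, Dstyk and Map3k10 held the motif.

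RNA modification, processing and translation gave 6 members. Pus3 and Trub1, both pseudouridine synthases, were at -1.86 and -1.49 on day 6. Pus3 read 297.3 and 290.4 in controls and 195.9 and 195.6 in knockout cells of day 1.5, and 271.3 and 286.2 against 78.61 and 75.28 on day 6, and its day 1.5 difference of -0.59 was the lowest of all members. Fto, a demethylase of RNA, read 541.5 and 562.9 against 559.6 and 571.2 on day 1.5 and 603.5 and 606.2 against 271.6 and 275.6 on day 6. The others were Msi1, Ctif and Snhg12, a host RNA of small nucleolar RNAs. Of 4 with a window, 3 held the motif.

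A further 24 members were given no role. Rbbp9, a serine hydrolase, read 490.2 and 456.1 in controls and 93.5 and 82.53 in knockout cells of day 6, a difference of -2.43 ± 0.080. Enox2 read 163.0 and 184.7 against 34.62 and 34.93, and Dnajc18, a J-domain protein, 154.3 and 165.0 against 31.29 and 23.71. In all of these the arrays of the groups were far apart. 1110004F10Rik, known by a clone name, read 1309 and 1308 in controls and 622.3 and 690.5 in knockout cells of day 3, and 1537 and 1568 against 213.7 and 207.0 on day 6, or 13.5% of control. Its day 6 difference of -2.88 ± 0.069 was the third lowest of all members. The others were Mettl26, Thyn1, Bivm, 4933404O12Rik, Car11, 2610528J11Rik, Kctd17, H2-Bl, Dnajc12, Fam185a, Psors1c2, Capn15, Cldnd1, Lratd2, Mcrip2, Klk8, Fam234b, Srl, Hdhd5 and Kbtbd8. Of 18 with a window, 10 held the motif.

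The other probe sets of the members give a second reading, although they share the RNA and the arrays. For 80 members there were 149 other probe sets. Of the 68 with a control intensity of at least 64 on day 6, 66 were below 0 on that day, 42 were at or below -0.8, and the median was -1.04. The 2 above 0 belonged to Snapc3 and Syt7. Over all 149, 131 were below 0 and the median was -0.56. These counts are of day 6 alone and do not show a step from day 3. Among the brighter ones, a probe set each of Vps41 (-1.41, then -0.57), Rad18 (-1.58, then -0.92) and Stc2 (-0.69, then -0.31) was less low on day 6. A probe set of Ttll4 was above 0 on day 3 (0.25, then -0.73). Others were lower still on day 6, such as those of Poglut2 (-1.32, then -2.31) and Mettl26 (-1.25, then -1.94). Probes shared with other transcripts are marked by the suffix of the probe set in 14 members, among them Galm, Enox2, Bub1b, Shmt2 and Mdh1.

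The time courses within each kind of cell share arrays with the rule and are given as such. In knockout cells the mean of day 6 was below that of day 1.5 in 135 members, with a median change of -1.01, and the means fell from each day to the next in 117. In controls the median change from day 1.5 to day 6 was 0.03, with a range from -0.31 to 0.76. The limits of days 1.5 and 6 place the knockout change below the control change in every member, so nothing is read from that order. Limma called 98 members lower in knockout cells of day 6 than of day 3 (all genes, 13.0%) and 3 higher (all genes, 20.5%), which were Bmp4, Nkx6-3 and Zscan22. In controls of day 6 against day 1.5 it called 0 members lower (all genes, 0.473%) and 7 higher (all genes, 1.09%): Pck2, H2-Bl, Lratd2, Kif5c, Gnmt, Stc2 and G0s2. The control changes furthest up were those of H2-Bl, Lratd2, Zfp90, Stc2 and Pck2, at 0.76, 0.56, 0.55, 0.54 and 0.51, of which that of Zfp90 was not called (adjusted p = 0.09). Those furthest down were of Slc23a1, Hdhd5, Acot1, Fam185a and Rgcc, at -0.31, -0.29, -0.23, -0.21 and -0.20. With only the compared arrays in the fit that count of 7 was 0, and without the second control array of day 6 it was also 0.

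In a few members the controls changed more than the knockout cells. Stc2, a secreted glycoprotein of the stress response, read 250.3 and 235.0 in controls of day 1.5 and 358.5 and 345.7 on day 6, while knockout cells read 168.5 and 187.5 and then 192.9 and 190.7. Its knockout level therefore was not lower on day 6 than on day 1.5 (log2 change 0.11), and its controls were higher by 0.54 ± 0.064 (limma, adjusted p = 0.0091). H2-Bl was similar, with controls higher by 0.76 and knockout cells lower by a change of -0.26. In 12 members the knockout change from day 1.5 to day 6 was smaller than 0.5, namely H2-Bl, Lratd2, Mid1ip1, Kif5c, Mthfd2l, Stc2, Ctif, Snhg12, Rab11fip5, Stxbp5, Syt7 and G0s2.

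**Figure D5:**
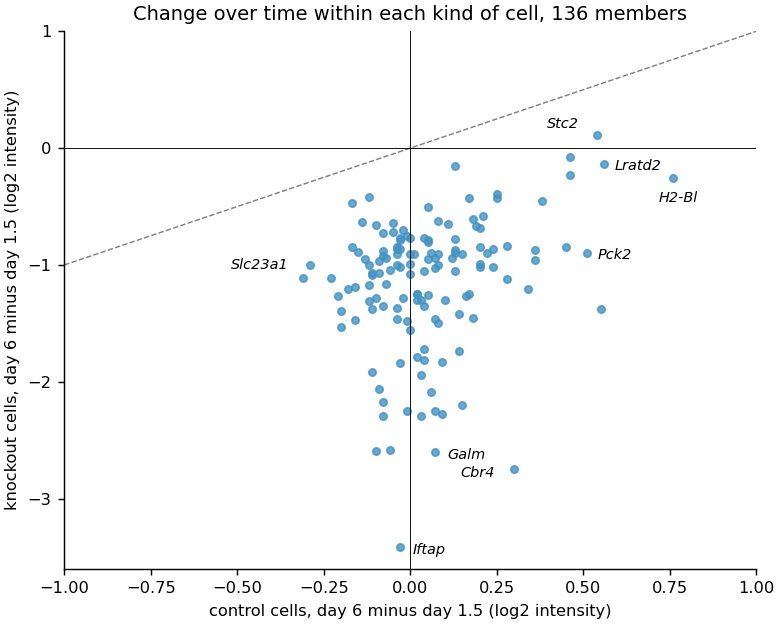
Log2 change from day 1.5 to day 6 in control cells (horizontal) and knockout cells (vertical) for the 136 stepwise falling genes, each point a gene, with equal change on the dashed line. Control changes run from -0.31 to 0.76 and knockout changes from -3.41 to 0.11, and Stc2 is the only point above 0 on the vertical axis.

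Day 3 stood apart in controls as well. Against controls of day 1.5, limma called 26 members (19.1%) lower on day 3 (all genes, 18.2%) and 19 higher (all genes, 9.12%). The share called lower was close to that of all genes, and the share called higher was above it. The rule used the same day 3 controls and favours genes whose controls read high on that day. Nothing is therefore read from either share, and neither difference in share was tested. The count of both directions was 28 rather than 45 with only the compared arrays in the fit. Bmp4 moved furthest. Its controls read 1369 and 1302 on day 1.5, 468.0 and 428.9 on day 3 and 1253 and 1241 on day 6, and its knockout cells 915.3 and 944.8, then 228.9 and 225.7, then 402.3 and 365.4. Both kinds of cells dipped on day 3, the controls by a log2 change of -1.58 ± 0.065 (limma, adjusted p = 1.8e-06), while the difference between them widened from day to day. The summed intensity of 15 extraembryonic endoderm markers dipped with it, from 8939 and 9271 in controls of day 1.5 to 4938 and 5061 on day 3 and 9446 and 9505 on day 6. On those days knockout cells had 6519 and 6701, 5454 and 5614, and 9692 and 9819, and the part of such cells in the Bmp4 values was not tested. Zscan22, Nkx6-3, Acp6 and Pus3 followed with control changes of -0.55, -0.55, -0.54 and -0.51, and Msi1, 2610528J11Rik, H2-Bl, Slc23a1 and Zbed6 were higher in controls of day 3 by 0.86, 0.84, 0.77, 0.67 and 0.59. When knockout cells of day 3 were set against controls of days 1.5 and 6 instead, the median difference of the members was -0.87, 118 were at or below -0.5, and Msi1 alone was above 0.

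Markers of other cell types were called only lower on day 1.5 and in both directions on days 3 and 6. On day 1.5, when 45 members were called lower as well, limma called 8 of 15 extraembryonic endoderm markers, 5 of 19 fibroblast or feeder cell markers and 2 of 9 trophoblast markers lower in knockout cells and 0 higher (all genes, 3.98% and 5.93%). The summed intensity of that day was 7780 and 7638 in controls and 6187 and 6090 in knockout cells for the fibroblast or feeder list, and 5409 and 5365 against 4193 and 4314 for the trophoblast list. Of the endoderm markers it called 4 lower and 4 higher on day 3 (all genes, 10.0% and 13.3%), and 6 lower and 2 higher on day 6 (all genes, 15.3% and 17.2%). Of the fibroblast or feeder cell markers 1 was lower and 4 were higher on day 3, and 6 were lower and 3 higher on day 6, with summed intensities of 8460 and 8895 in controls and 9731 and 9611 in knockout cells. Of the trophoblast markers 1 was lower and 3 were higher on day 3, and 2 were lower and 2 higher on day 6, with sums of 8112 and 8180 against 7460 and 7586. Some of the listed markers were near the low end of the array in controls of day 6, with Elf5 at 14.85, Cdx2 at 33.93, Gata4 at 41.75, Lum at 11.55 and Col3a1 at 12.28. The sums come mostly from brighter markers of the same lists, so these dim ones do not show that the cell types were absent. None of the 136 genes is on a marker list, and the part of these cell types in the differences was not tested.

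The pathways to which members belong held genes called in both directions, against 15.3% lower and 17.2% higher over all genes. Of 25 serine, folate and one-carbon genes, which include Shmt2 and Mthfd2l, 12 were called lower and 4 higher on day 6. Among 70 genes of the tricarboxylic acid cycle and of amino and fatty acid breakdown, with Mdh1 and Pck2, 23 were lower and 12 higher. Of 67 genes of mitochondrial import, dynamics and proteostasis, with Clpb, 23 were lower and 10 higher, and of 60 iron-sulfur, haem and cofactor genes, with Bola1 and Cpox, 14 were lower and 16 higher. Membrane traffic, Golgi and glycosylation, the list with Gmppa, Mpi and Vps41, had 21 lower and 36 higher of 105. DNA replication and repair, with Rad18 and Rad51b, had 30 lower and 25 higher of 129, and cilium and intraflagellar transport, with Iftap, 11 lower and 17 higher of 53. For tRNA modification, with Pus3, the counts were 24 and 9 of 69. For RNA polymerases and Mediator, with Snapc3, they were 23 and 19 of 93, for integrated stress response targets, with Stc2, 11 and 3 of 26, and for cyclins and mitotic kinases, with Bub1b, 10 and 11 of 41. The median day 6 difference of these lists lay between -0.15 and 0.07, whereas their members listed here were all at -0.88 or below. In all, 17 of the 136 genes lie on such lists.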

How the data were processed

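The study measured RNA in 12 samples of mouse ES cells on Affymetrix Mouse Genome 430 2.0 arrays. Each deposited value is a probe set's intensity on a linear scale (5.511 to 34993). Per the submitters' processing notes the authors used RMA, whose version is not given in the sources used here. RMA puts all arrays on a common distribution, so a shift of most genes in one direction would not be seen. The log2 of each intensity was taken. No scan dates or detection calls were used, and the number of arrays limits the precision.

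The platform annotation gave 1 symbol to 34958 of 45101 probe sets. Taking the brightest for every symbol left 18194 genes, dim ones included. A linear model with 6 group means was fitted to all 12 arrays and moderated by eBayes, using limma 3.58.1 under R 4.3.3 (6 residual and 3.04 prior degrees of freedom), Benjamini-Hochberg adjustment and a threshold of 0.05. P-values measure the spread between arrays only, which may be technical. The fit and the motif search were tested on simulated data. Arrays with the same replicate number did not deviate together (correlations -0.00375, -0.0573 and 0.0278 on the 3 days), so no pairing was used.

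The members and lists were chosen with earlier results of these data known, and roles were assigned after seeing the member names. The rule for named members took the 15 with the lowest day 6 difference, the 5 brightest, list members, those nearest each limit, members with the motif, and the 5 with the largest control changes in each direction, and left symbols that are clone numbers undescribed. Members named for the motif alone are in part given only by name and range. 1110004F10Rik, 2610528J11Rik, Gnmt, Hspb11, Car11 and the non-member neighbours Zfp607b, Ttc13 and Cpeb3 were named after their values were seen, and the remaining names account for every member. RefSeq promoter sequences (GRCm38.p6) were searched on both strands with Python 3.11.15. The settings varied were the replicate number as a term, a fit of only the groups compared, trended and robust eBayes, weights per array, removal of the dimmest 40% of genes or of single arrays, the average over a gene's probe sets, median centring, quantile normalization, other control arrays for day 3, 1 replicate alone, limits shifted by 0.1, 1 mismatch in the motif and only bases before the start.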

Additional observations from a re-analysis of the deposited data

Results flagged for a closer look

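The knockout effect differed between day 3 and day 6 in 84 members by the limma test of the difference itself. All 84 were called downward (all genes, 8.75% downward and 7.69% upward). The rule required the day 6 difference to be the lower one, so only the sizes are of interest. The largest were those of Iftap (log2 change of the effect -2.15), 1110004F10Rik (-1.89) and Acad8 (-1.51).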

How the results depend on the processing

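The number of genes that met the rule, 136, was 125 to 142 with each array left out and 93 to 173 otherwise, the lowest with the average over a gene's probe sets (85 shared with the 136) and the highest with limits 0.1 looser. With the replicate block the calls were 133 of 136 on day 3, 136 on day 6, 83 for the change between them, 45 and 6 for controls of days 3 and 6, and 101 for knockout cells of day 6 against day 3. The pairing of arrays by number was not borne out. Leaving out each array gave 129 to 135, 136 to 136, 68 to 81, 30 to 46, 0 to 7 and 89 to 100 for the same calls. Controls of day 3 against day 1.5 gave 28 calls in place of 45 with only the arrays compared. Controls of day 6 against day 1.5 gave 0 in place of 7 with only the arrays compared, 17 with trended, robust eBayes and 16 without the dimmest 40% of genes. They gave 2 without the first or second control array of day 1.5 or the first of day 6, and 0 without the second of day 6. The cause of these shifts was not tested beyond the fewer arrays or genes in each fit. The share of all genes called under each setting is not given here, so the counts describe only how far the calls moved. The share of members with the motif was 70.1% with 1 mismatch allowed (6.35% of all genes) and 54.2% in the bases before the start (3.22%). With 2 arrays per group, many small differences may have gone uncalled, and no result here separates loss of Thap11 from the presence of CreERT2.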
